A study of Mus musculus with 6 samples.

Results

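The endothelial and endocardial markers of the embryonic ventricle were examined here in mice lacking skNAC. They are 10 genes, Pecam1, Cdh5, Emcn, Kdr, Flt1, Tek, Tie1, Eng, Nfatc1 and Npr3, and the members are all probe sets that the platform annotation assigns to 1 of these symbols alone, 21 of 45101 probe sets in all. The table holds probe sets for 18194 such symbols. No marker differed detectably between the genotypes. The limma fit across all kept probe sets called 0 of the 18 member probe sets bright enough to test, and each 95% interval included 0. The summed intensity of the 10 genes, 1 probe set each, ran from 5052 to 5249 in the knockout arrays and from 5044 to 5260 in the wild-type arrays.

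Endothelial cells line the vessels and, as endocardium, the inner surface of the heart, where they face the trabeculated muscle of the ventricle and exchange growth signals with it. Their identity is read from junction and surface proteins (Pecam1, Cdh5, Emcn), from receptors for vascular endothelial growth factor (Kdr, Flt1), from the angiopoietin receptor Tek and its relative Tie1, and from the transforming growth factor beta co-receptor Eng. The transcription factor Nfatc1 and the natriuretic peptide clearance receptor Npr3 mark the endocardium within this lineage in the mid-gestation mouse heart.

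Ventricles with a targeted deletion of skNAC, the muscle-specific form of the Naca transcript, were measured on 3 arrays, and wild-type littermate ventricles on 3. All were 129SvEv embryos at E11.5, before the lethality placed by E12.5, and 500 ng of total RNA from each was amplified and biotin-labelled for a mouse 430 2.0 array. The labels do not say whether an array held 1 heart or several, or which embryos shared a litter, so p-values measure the spread between these samples, which may be technical. Arrays carry the number of their title: knockout 1, 26 and 66, and wild-type 13, 23 and 57.

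Values are MAS5 intensities on a linear scale that the authors made and scaled per array. Array medians ran from 92.0 to 114. A 1-colour array gives no counts, so the number of arrays limits the precision. Naca read 9047, 9034 and 8595 in knockout and 8385, 8566 and 8286 in wild-type on its brighter probe set of 2. The sources used here do not say whether that probe set lies in the deleted part, so it does not check the labels. Principal component 1 carried 38.4% of the variance, and on it knockout 66 scored 57.7 and the other arrays -25.0 to 4.82. Control probe sets gave actin 3' to 5' ratios of 2.49 to 2.57 in knockout and 2.05 to 2.24 in wild-type, and Gapdh ratios of 1.28 to 1.45 in knockout and 1.12 to 1.20 in wild-type. Xist, the RNA that coats the inactive X chromosome, read 6295 to 6896 in knockout, against 6275 and 7481 in wild-type 13 and 23 and 466 in wild-type 57. Whether these differences between arrays contribute to any result below was not tested, except where a value without one array is given.

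Endothelial promoters are known for sites of ETS-family factors, whose core letters are GGAA. The RefSeq promoter table (GRCm38.p6) held 7 of the 10 genes. Those of Emcn and Npr3, with 3 and 0 matches of the core, are not shown. The windows of the 5 vascular receptor and co-receptor genes, Kdr, Flt1, Tek, Tie1 and Eng, are shown. Each is the 150 bases before the annotated transcription start, written 5′ to 3′ on the strand of the gene, with GGAA, or TTCC where the core lies on the opposite strand, in capitals. They lie at chr5:75978456-75978605 (minus strand), chr5:147726012-147726161 (minus), chr4:94739139-94739288 (plus), chr4:118489850-118489999 (minus) and chr2:32646445-32646594 (plus).
Kdr: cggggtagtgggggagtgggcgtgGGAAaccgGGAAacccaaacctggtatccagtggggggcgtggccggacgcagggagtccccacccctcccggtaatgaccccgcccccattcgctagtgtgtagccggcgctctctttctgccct
Flt1: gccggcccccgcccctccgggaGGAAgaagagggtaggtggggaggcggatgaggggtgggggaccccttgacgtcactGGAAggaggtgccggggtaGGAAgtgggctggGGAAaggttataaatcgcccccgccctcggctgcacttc
Tek: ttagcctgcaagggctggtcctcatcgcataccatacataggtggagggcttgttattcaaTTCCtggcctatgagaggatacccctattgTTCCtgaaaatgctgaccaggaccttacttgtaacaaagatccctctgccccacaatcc
Tie1: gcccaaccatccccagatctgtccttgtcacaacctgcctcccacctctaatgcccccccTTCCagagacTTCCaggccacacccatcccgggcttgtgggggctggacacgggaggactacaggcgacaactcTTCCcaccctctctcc
Eng: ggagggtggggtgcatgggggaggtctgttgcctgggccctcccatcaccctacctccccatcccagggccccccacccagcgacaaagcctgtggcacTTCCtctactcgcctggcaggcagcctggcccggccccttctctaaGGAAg

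The core GGAA, searched on both strands, was in 6 of the 7 windows, with 4 matches in Flt1, 3 in Tie1 and 2 each in Kdr, Tek and Eng, and in 80.8% of all 32851 windows of the table. The longer forms AGGAAG or CGGAAG, which contain that core, were in 3 of 7 windows (Flt1, Eng and Emcn) and in 28.0% of all. GATAA was in 0 of 7 and in 13.3% of all, GGAAAA, which also overlaps the ETS core, in 1 of 7 and 11.8%, and the GC box GGGCGG in 2 of 7 and 28.6%. GC content over the 7 windows ran from 40.7% in that of Emcn to 68.0% in those of Flt1 and Eng, against a median of 54.0% over all windows. These matches describe the letters of the windows only.

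Each difference below is knockout minus wild-type on the scale log2(intensity + 16), which understates the change of dim probe sets, with its standard error (SE) from limma. Probe sets were tested when their mean over the 6 arrays was above 100.3, the median of all probe sets other than array controls. Of the 21 member probe sets, 18 passed, with at least 1 for each gene. In bulk tissue, fewer cells of a type and less RNA per cell cannot be told apart.

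**Figure D1:**
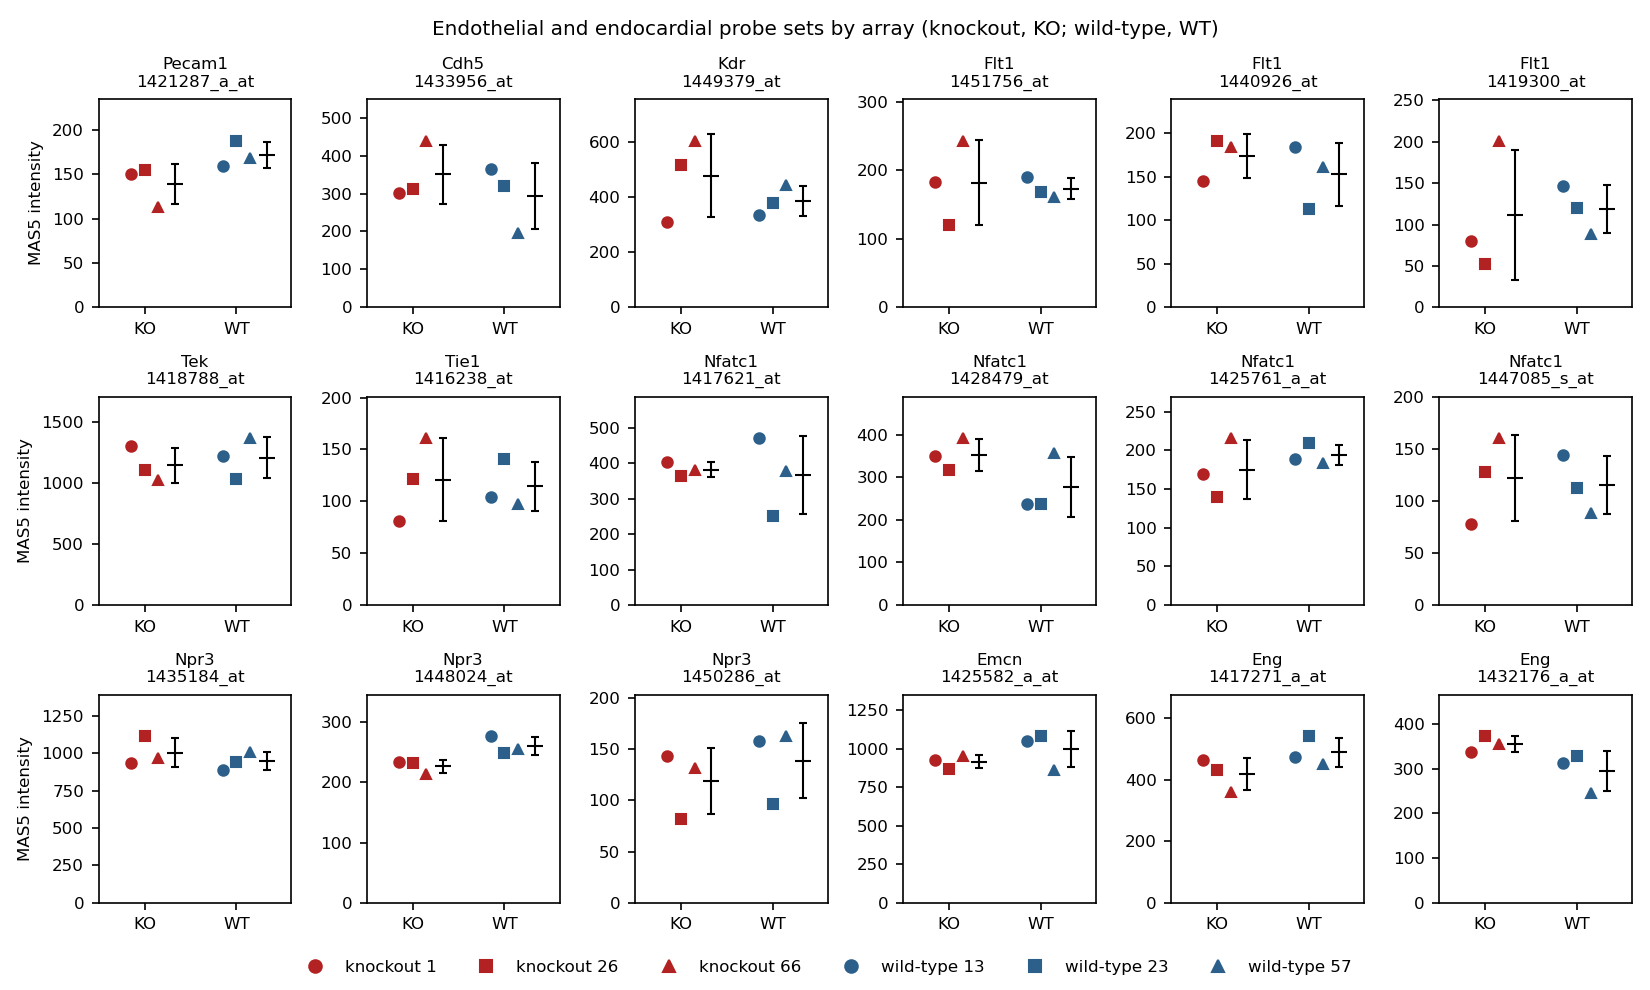
MAS5 intensity (linear axis from 0) of the 18 tested probe sets on each array, knockout at left and wild-type at right of each panel; bars are mean ± SD of 3 arrays. The genotypes overlapped in 15 panels and were separate in those of Pecam1, Npr3 1448024_at and Eng 1432176_a_at.

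Pecam1, the adhesion molecule of endothelial junctions that platelets and leukocytes also carry, read 151, 154 and 114 in knockout and 159, 188 and 169 in wild-type. The highest knockout array was below the lowest wild-type array, and knockout 66 was the dimmest. The difference was -0.28 ± 0.22, with a 95% interval from -0.77 to 0.20 (limma adjusted p = 0.976), and it was -0.16 without knockout 66. Platelet and macrophage genes, from cell types that also carry Pecam1, were measured for 7 of 11 on the array. Summed intensities were 2571 to 2731 in knockout and 2810 to 3209 in wild-type. The mean log2 deviations of these genes from their 6-array means overlapped, at -0.05, -0.08 and -0.02 in knockout and -0.04, 0.13 and 0.05 in wild-type. Differences were above 0 for 2 genes and below for 5. Of that list the platelet chemokine gene Ppbp differed by -0.56 ± 0.14. The platelet gene Pf4 differed by -0.04 ± 0.14 and the macrophage receptor gene Csf1r by -0.22 ± 0.15, and 0 genes of the list passed the adjustment. An unadjusted p under 0.05 was reached by 1 gene, Ppbp, beside 4.85% of all probe sets. The genotypes were separate for 3 of the 7 genes, all lower in knockout, beside 10.8% of all genes represented by 1 probe set. They were Ppbp, Csf1r and Lyz2, the last named after its values were seen. The part of these blood cells in the Pecam1 values was not tested.

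Cdh5, the cadherin that joins endothelial cells, pointed the other way. It read 301, 311 and 440 in knockout and 364, 320 and 196 in wild-type. The groups overlapped: knockout 66 was the highest array and wild-type 57 the lowest, and the difference of 0.27 ± 0.24 was 0.10 without knockout 66 and 0.02 without wild-type 57. The second Cdh5 probe set, 37.4, 73.4 and 64.7 in knockout and 65.2, 55.7 and 45.9 in wild-type, was too dim to be tested.

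Emcn, the sialomucin endomucin of endocardium and veins, had 1 probe set and a narrow spread. It read 924, 869 and 953 in knockout and 1051, 1080.4 and 862 in wild-type. The knockout values lay inside the range of the wild-type arrays. The difference was -0.12 ± 0.13, and its interval from -0.40 to 0.17 was among the tightest of the members.

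Kdr, the main signalling receptor for vascular endothelial growth factor, was uneven among the knockout arrays. It read 310.2, 516 and 605 in knockout and 334, 377 and 445 in wild-type. Knockout 1 was the lowest of all 6 arrays, and knockout 26 and 66 were the highest. The difference of 0.25 ± 0.23 was 0.06 without knockout 66 and 0.53 without knockout 1, and it passed the adjustment in neither case.

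Flt1, which binds the same ligand and also acts as a decoy for it, had 4 probe sets, 3 of them tested. The brightest, 1451756_at, read 182, 119.9 and 243 in knockout and 190.4, 168 and 161 in wild-type (0.02 ± 0.25). The probe set 1440926_at read 145, 192 and 184 in knockout and 185, 113 and 161 in wild-type (0.18 ± 0.24). The groups overlapped on both, and on the first the knockout arrays held both the lowest and the highest value.

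The third Flt1 probe set, 1419300_at, read 80.5, 52.5 and 202 in knockout and 146, 119.8 and 88.6 in wild-type. Knockout 66 was the highest array and the other knockout arrays the lowest. Its interval, -1.15 to 0.69, was the only one of the 18 to reach beyond a log2 difference of 1 in size. The dim probe set 1454037_a_at, at 127, 78.1 and 79.1 in knockout and 82.9, 102 and 92.2 in wild-type, was not tested.

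Tek, the receptor for angiopoietins, read 1303, 1109 and 1023 in knockout and 1223, 1033 and 1368 in wild-type, and the groups overlapped. The difference was -0.07 ± 0.14, with an interval from -0.39 to 0.24. Tie1, an orphan receptor that pairs with Tek, read 81.0, 121 and 161 in knockout and 105, 141 and 97.5 in wild-type (0.04 ± 0.31). For Tie1 the knockout arrays spanned the whole range of values, with knockout 1 the lowest and knockout 66 the highest.

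Eng, endoglin, the co-receptor through which endothelial cells read BMP9 and related ligands, had 2 tested probe sets of opposite sign. The brighter, 1417271_a_at, read 463, 432 and 361 in knockout and 474, 541 and 449.5 in wild-type (-0.22 ± 0.15). The other, 1432176_a_at, read 337, 373 and 355 in knockout and 312, 328 and 245 in wild-type (0.26 ± 0.16). Knockout 1 overlapped the wild-type arrays on the first, and on the second all knockout arrays lay above all wild-type arrays.

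The log2 ratio of the brighter to the dimmer Eng probe set was 0.44, 0.21 and 0.02 in knockout and 0.58, 0.70 and 0.84 in wild-type, with no overlap. The exact two-sided permutation test on this ratio gave p = 0.1, the smallest that 20 assignments of 6 arrays allow, so the design cannot reach 0.05. Over the 13 pairs of probe sets of 1 gene that were compared in this way the adjusted value was 0.65. The actin and Gapdh 3' to 5' ratios given above also did not overlap between the genotypes, and their part in the Eng ratio was not tested.

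Nfatc1, the calcium-regulated transcription factor of endocardium needed for valve formation, had 5 probe sets, 4 of them tested. The brightest, 1417621_at, read 404, 364 and 379.8 in knockout and 470.5, 252 and 379 in wild-type (0.10 ± 0.21). The knockout arrays differed among themselves by less than the wild-type arrays did, with an SD of 20.4 against 110 in wild-type.

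The probe set 1428479_at of Nfatc1 had the smallest unadjusted p of any member, 0.0954. It read 349, 317 and 392 in knockout and 238, 237 and 358 in wild-type, a difference of 0.35 ± 0.19 (limma adjusted p = 0.976). Wild-type 57 lay among the knockout arrays and the other wild-type arrays below them. Without wild-type 57 the difference was 0.54.

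The remaining Nfatc1 probe sets gave -0.15 ± 0.21 (1425761_a_at) and 0.05 ± 0.32 (1447085_s_at), both with overlapping groups. The last, 1447084_at, read 115, 126 and 106 in knockout and 40.2, 115 and 82.3 in wild-type, and its mean of 97.5 fell just below the level of testing. The dimmest tested member, Flt1 1419300_at, had a mean of 115.

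Npr3, which removes natriuretic peptides from the cell surface and is a marker of ventricular endocardium, had 3 tested probe sets. The brightest, 1435184_at, read 933, 1115 and 969 in knockout and 889, 942 and 1009 in wild-type (0.08 ± 0.12), with overlap. The dimmer 1448024_at read 234, 232 and 214 in knockout and 277, 249 and 256 in wild-type (-0.19 ± 0.16). On that probe set each knockout array was dimmer than any wild-type array. The third, 1450286_at, at 144, 82.2 and 131 in knockout and 158, 96.3 and 163 in wild-type, overlapped (-0.20 ± 0.30). The log2 ratio of the first to the second probe set averaged 2.07 ± 0.14 in knockout and 1.80 ± 0.15 in wild-type (SD, n = 3 each), without overlap (exact permutation p = 0.1, adjusted 0.65).

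Over the 18 tested probe sets, 10 had a difference above 0 and 8 below, with a median of 0.03, and the median over all 22518 tested probe sets was -0.01. In limma, 0 of the 18 passed an adjusted p of 0.05, as did 0% of all probe sets, and the smallest adjusted p among members was 0.976. An unadjusted p under 0.05 was reached by 0 of 18 members and by 4.85% of all probe sets. The genotypes were separate for 3 of 18 members and for 10.5% of all probe sets: 1 member was higher in knockout, against 4.96% of all, and 2 were lower, against 5.56%. Of the 13 pairs of tested probe sets that share a gene, 8 had opposite signs. For 17 of the 18 probe sets the 95% interval lay between log2 differences of -1 and 1, and the median SE of the members was 0.22.

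**Figure D2:**
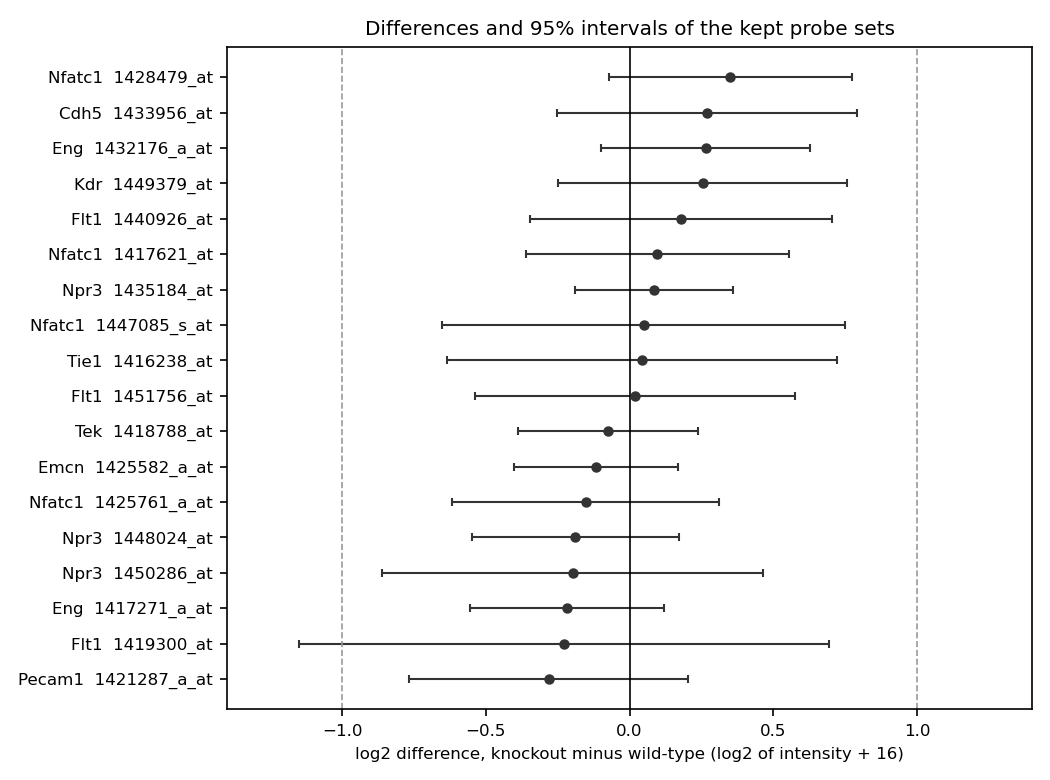
Log2 difference (knockout minus wild-type) of each tested member probe set with its 95% interval from limma; dashed lines stand at -1 and 1. Every interval crosses 0, and Flt1 1419300_at alone reaches past a dashed line, at -1.15.

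The 10 genes did not move together from array to array. Taking the brightest tested probe set of each gene, knockout 66 held the highest value of the 6 arrays for 4 genes (Cdh5, Kdr, Flt1 and Tie1) and the lowest for 3 (Pecam1, Tek and Eng). Knockout 1 held the lowest for Kdr and Tie1 and the highest for 0 genes. Wild-type 23 held the highest for Pecam1, Emcn and Eng. The mean deviation of the 10 genes from their 6-array means was -0.07, -0.02 and 0.10 in knockout and 0.04, 0.01 and -0.06 in wild-type on the log2 scale. Without knockout 66 the median difference of the tested member probe sets was -0.12, over 17 probe sets.

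**Figure D3:**
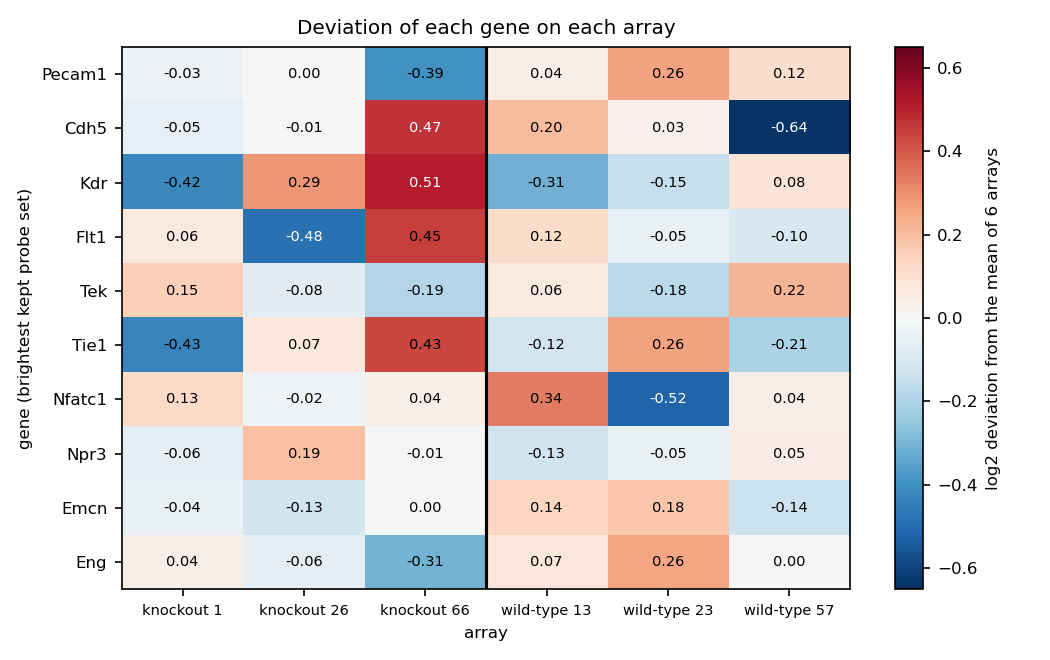
Log2 deviation of each gene (rows, brightest tested probe set) from its own mean of 6 arrays, for the knockout arrays at left and the wild-type arrays at right of the black line. Knockout 66 ranges from -0.39 for Pecam1 to 0.51 for Kdr, and the lowest value, -0.64, is that of Cdh5 in wild-type 57.

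The genes whose profile over the 6 arrays was most like the mean profile of the 10 were Rai14, Kat5 and Dact1, among 11480 genes that varied at least as much. Their root mean square differences from that profile were 0.024, 0.025 and 0.026 on the log2 scale. The profile itself had an SD of 0.063, so it was nearly flat.

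The ligands and partners of the vascular receptors were likewise without a call. Of 16 VEGF and angiopoietin pathway genes on the array, 14 were tested and 0 passed in either direction. Their median difference was -0.08 beside 0.00 over all 11648 genes represented by 1 probe set, with 4 above 0. Vegfa, the growth factor that Kdr and Flt1 bind, read 644, 571 and 682 in knockout and 646, 770.4 and 676 in wild-type (-0.14 ± 0.14). Angpt1, the activating ligand of Tek, read 1019, 1285 and 1254 in knockout and 988, 1021 and 1095 in wild-type (0.19 ± 0.13). Both overlapped between genotypes, with wild-type 23 the highest array for Vegfa and knockout 26 the highest for Angpt1. Of the other ligands, Vegfb differed by 0.02 ± 0.14, Vegfc by -0.04 ± 0.17 and Vegfd by -0.09 ± 0.33, and Pgf and Angpt2 were too dim to be tested. The VEGF and semaphorin co-receptor Nrp1 differed by -0.09 ± 0.14, and the downstream phospholipase Plcg1 by -0.08 ± 0.13. The genotypes were separate for 1 of the 14 genes, beside 10.8% of all genes represented by 1 probe set. That gene was Sema3a, a secreted guidance cue that binds Nrp1, named after its values were seen. It read 396, 464 and 476 in knockout and 319.5, 377 and 366 in wild-type (0.32 ± 0.15).

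Around Eng, 13 of 17 genes of TGF-beta and BMP signalling were tested, 0 passed, and the median was -0.05 with 3 above 0. Among ligands, Tgfb1 differed by 0.13 ± 0.20, Tgfb2 by -0.16 ± 0.15 and Gdf2, which encodes BMP9, by -0.13 ± 0.32, while Tgfb3 and Bmp10 were too dim to be tested, as was the endothelial receptor gene Acvrl1. The receptor genes Bmpr2, Tgfbr3 and Tgfbr1, the brightest of the list, differed by 0.03 ± 0.19, 0.13 ± 0.14 and -0.03 ± 0.11. Bmpr2 was higher in knockout 66, at 2695, than in the other knockout arrays, at 1516 and 1700.1, against 1762 to 2055 in wild-type. The genotypes were separate for 1 of the 13 genes, beside the same 10.8% of all genes. That gene was the inhibitory Smad gene Smad6, also named after its values were seen. It read 635, 701 and 718 in knockout and 873, 800.2 and 719 in wild-type (-0.21 ± 0.13).

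All 9 genes of the calcineurin and NFAT pathway on the array were tested, 0 passed, and the median was 0.01 with 6 above 0. The calcineurin target Rcan1 read 1797, 1763 and 1895 in knockout and 2126, 1903 and 1744 in wild-type (-0.08 ± 0.11), with overlapping groups. The calcineurin subunit genes Ppp3cb and Ppp3r1 differed by 0.04 ± 0.10 and 0.10 ± 0.11. Of 6 natriuretic peptide genes on the array, 3 were tested and 0 passed. Nppa and Nppb, the ligands that Npr3 clears and which heart muscle makes, differed by 0.09 ± 0.10 and -0.20 ± 0.14, and the peptide-processing protease gene Corin by -0.07 ± 0.19. The ligand gene Nppc and the receptor genes Npr1 and Npr2 were too dim to be tested.

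Endothelial genes beyond the 10 gave no call either. Of 29 on the array 27 were tested, 0 passed, 15 were above 0 and the median was 0.02. The brightest were Ramp2, a partner of the adrenomedullin receptor (-0.12 ± 0.11), Plvap, a component of endothelial diaphragms (0.09 ± 0.13), and the ETS factor gene Ets1 (-0.28 ± 0.13). At an unadjusted p under 0.05 there were 3 of 27, beside 4.85% of all probe sets, named after their values were seen. Lmo2, a cofactor of blood and endothelial progenitors, read 557, 518 and 390.4 in knockout and 398, 310.2 and 341 in wild-type (0.46 ± 0.17). Mcam, an adhesion molecule of endothelium and mural cells, read 282, 126 and 319 in knockout and 449, 455 and 381 in wild-type (-0.87 ± 0.28). Cd34, a sialomucin of endothelium and progenitors, read 300.1, 237 and 196 in knockout and 468, 453 and 248 in wild-type (-0.61 ± 0.25). The genotypes were separate for Mcam and overlapped for Lmo2 and Cd34, and each of the 3 had a limma adjusted p of 0.976. In the whole list they were separate for 4 of 27 genes, 1 higher in knockout and 3 lower, beside 10.8% of all genes represented by 1 probe set. Over all settings the difference of Mcam ran from -1.35 to -0.49, the latter without knockout 26, its lowest array.

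Of 20 further endocardial and shear-regulated genes 19 were tested, 0 passed, 10 were above 0 and the median was 0.03. The brightest were the transcription factor genes Tbx20 (-0.17 ± 0.14) and Foxp1 (-0.07 ± 0.12) and the hyaluronan-linking gene Hapln1 (0.20 ± 0.11). Nrg1, the endocardial growth factor for trabeculae, was too dim to be tested.

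Markers of the other cell types showed what else the samples held. Cardiomyocyte genes, all 12 tested, had summed intensities of 117194 to 131706 in knockout and 113327 to 122761 in wild-type, and the 3 brightest, Myl2, Actc1 and Myl3, differed by 0.23 ± 0.09, 0.15 ± 0.08 and 0.07 ± 0.09. Red cell genes, 7 of 8 tested, varied more between arrays than between genotypes, with mean deviations of 0.55, -0.03 and -0.35 in knockout and -0.01, -0.35 and 0.18 in wild-type. The brightest were the embryonic globin genes Hbb-y (0.26 ± 0.09), Hbb-bh1 (0.13 ± 0.14) and Hba-x (-0.03 ± 0.14). Epicardial genes, 10 of 11 tested, had mean deviations of 0.00 to 0.09 in knockout and -0.07 to -0.02 in wild-type. Of the 10, 6 differed by more than 0 and 4 by less, with a median of 0.06. The brightest, Tbx18, Krt8 and Upk3b, differed by -0.12 ± 0.18, 0.80 ± 0.18 and -0.19 ± 0.14, and that of Krt8 was the largest of the list. An unadjusted p under 0.05 was reached by 1 gene in each of these 3 lists, Myl2, Hbb-y and Krt8, beside 4.85% of all probe sets. None of the cardiomyocyte, red cell and epicardial genes passed the adjustment.

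Mesenchyme and mural genes were lower in knockout on average, while the endothelial members overlapped between genotypes. Mean deviations of the mesenchyme and mural list were -0.16, -0.22 and -0.04 in knockout and 0.16, 0.18 and 0.08 in wild-type, with no overlap. In that list 13 of 14 genes were tested. The median difference was -0.25, 9 were below 0, and 0 passed. An unadjusted p under 0.05 was reached by 7 of the 13, beside 4.85% of all probe sets. Among the 7 genes Acta2 was higher in knockout on average, and Postn, Col1a1, Snai2, Lum, Pdgfrb and Cspg4, named after their values were seen, were lower. For Cspg4, Snai2 and Col1a1 a dimmer tested probe set was also lower on average but did not reach a p under 0.05. Differences there were -0.41 ± 0.26, -0.39 ± 0.18 and -0.52 ± 0.25. Unadjusted limma p was 0.15, 0.052 and 0.061 in that order. On the dimmer probe set the genotypes overlapped for Cspg4 and Snai2 and were separate for Col1a1. Postn and Lum overlapped between genotypes. Knockout 66 read 1551 and 438 for them, against 1415 to 1645 and 402 to 474 in wild-type. In the whole list the genotypes were separate for 5 of 13 genes, 1 higher in knockout and 4 lower, beside 10.8% of all genes represented by 1 probe set. The list was chosen with earlier results of these data known, so these counts are a description only. The brightest genes of that list, the smooth muscle genes Acta2 and Tagln and the collagen gene Col3a1, differed by 0.27 ± 0.08, 0.08 ± 0.12 and -0.03 ± 0.12. Summed intensity, which these bright genes dominate, ran from 26063 to 29853 in knockout and from 24247 to 27222 in wild-type. The mural gene Pdgfrb read 286, 281 and 218 in knockout and 387, 396 and 323 in wild-type (-0.47 ± 0.17, limma adjusted p = 0.976), and was named after its values were seen because it marks cells that also carry Mcam. The part of these cells in the Mcam values was not tested.

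**Figure D4:**
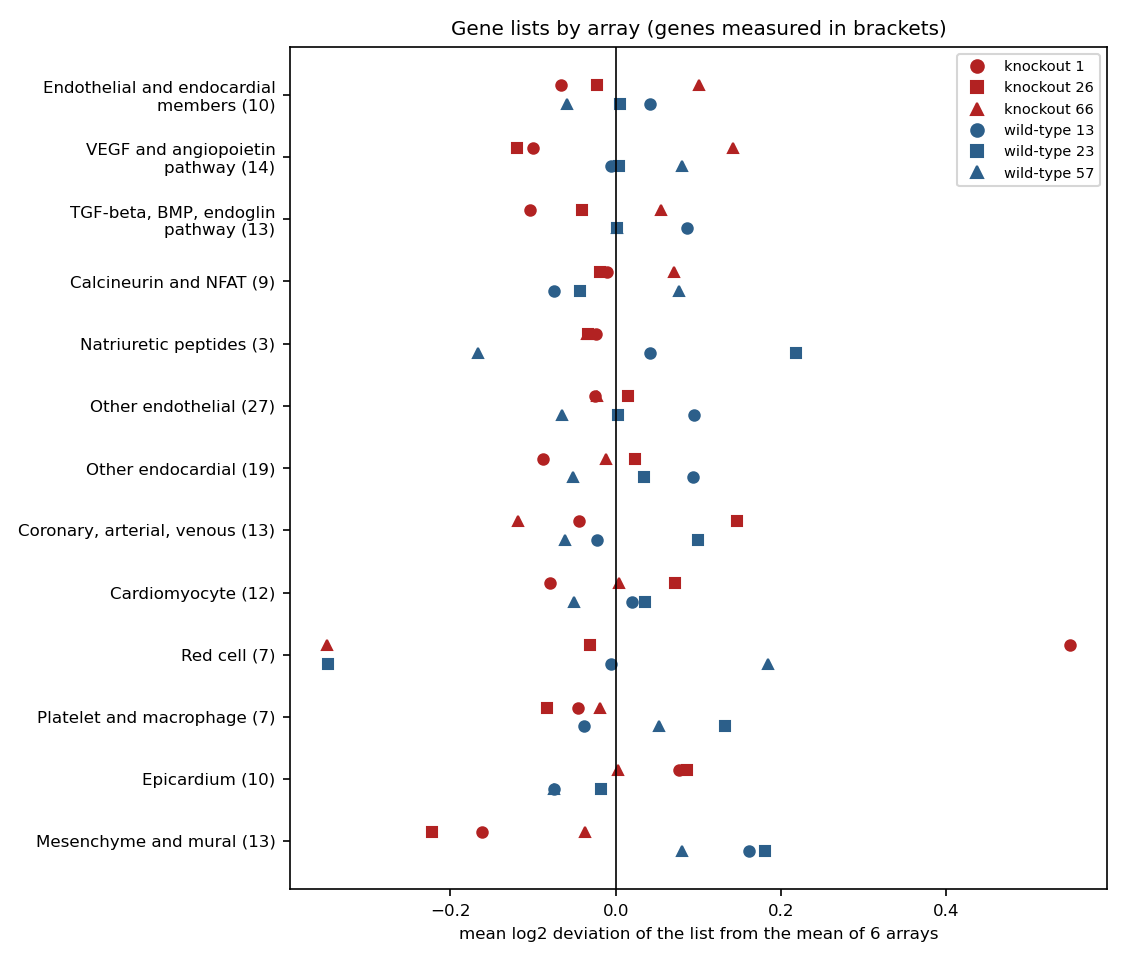
Mean log2 deviation of each gene list from the mean of 6 arrays, 1 point per array, with knockout arrays above wild-type arrays in each row and the number of tested genes in brackets. The genotypes overlap for the 10 endothelial and endocardial genes and are separate for the epicardium and the mesenchyme and mural lists. In the epicardium list 4 of 10 genes differed by less than 0, and Krt8 had the largest difference, 0.80 on its brightest tested probe set.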

How the data were processed

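The authors deposited linear MAS5 intensity values from GCOS, per the submitters' processing notes. Detection calls were not used here. Each array had a 2% trimmed mean intensity of 250.0, so values are relative to the rest of the array. Of 45101 probe sets, 64 were controls, and GEO's annotation listed 1 symbol for 34958, several for 932 and none for 9211.

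The 22518 probe sets with a mean above 100.3 were fitted as log2(intensity + 16) in limma 3.58.1 (R 4.3.3, lmFit, eBayes, mean-variance trend), two-sided, with Benjamini-Hochberg adjustment over all of them. The procedure was tested on simulated data. It recovered 28% of 50 true log2 changes of 0.5 and 70% of 50 changes of 1, with 8 false calls in all. Most changes of 0.5 were therefore missed. The simulated spread was the median at each level of brightness, so recovery in the real data may differ. Lists use the brightest tested probe set of a gene. Ratios were compared with scipy 1.17.1.

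Members and lists were chosen with earlier results of these data known. The text names every member, the 3 brightest genes of each list, the ligands and the 3 genes of most similar profile, and says where others were added. Alternatives changed the pseudocount, filter, normalization, variance model, array weights, probe sets used, threshold and arrays included.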

Additional observations from a re-analysis of the deposited data

How the results depend on the processing

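In all 19 alternative settings 0 member probe sets were called, and the smallest adjusted p of any member was 0.396 (Flt1 1419300_at with array quality weights). An unadjusted limma p under 0.05 was reached by 1 member with array quality weights, 1 without knockout 1 and 1 without wild-type 57. In those settings 2709, 1618 and 833 of all tested probe sets reached it. Of the 18 member differences, 10 kept their sign throughout. With array quality weights Tie1 turned to -0.036 and Flt1 1451756_at to -0.28. Leaving out each array in turn gave -0.16 to 0.27 for Tie1, -0.18 to 0.019 for Tek, -0.20 to 0.27 for Flt1 1451756_at, -0.0013 to 0.32 for Flt1 1440926_at, -0.40 to 0.13 for Flt1 1419300_at, -0.14 to 0.29 for Nfatc1 1417621_at, -0.15 to 0.30 for Nfatc1 1447085_s_at and -0.42 to 0.016 for Npr3 1450286_at. The cause was not tested. With each array left out in turn the median over the tested members ran from -0.12 (without knockout 66) to 0.040. In the other settings it ran from -0.032 (array quality weights) to 0.090 (a filter at the 70th percentile), and apart from the value without knockout 66 it moved by less than the spread between arrays.

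Over all probe sets, 0 were called and 1091 had an unadjusted p under 0.05. Array quality weights, 0.33 for knockout 66 and 2.55 for knockout 26, gave 6 calls (Sfrp1, Eef1a2, Kcnk3, Pcyox1, Wdr1 and Mb). Leaving out an array gave 0 to 2 calls. The 2 were Igdcc4 and Nudt6, without knockout 1. Of the 144 list genes outside the members, 72 kept their sign in every setting that tested them and 0 were called in any. No paired analysis was possible because the genotypes share no replicate number. Dim probe sets limit precision: the intervals of Flt1 1419300_at, Tie1 and Nfatc1 1447085_s_at, all with means under 120, were among the widest.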

Other observations

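Genes of coronary, arterial, venous and lymphatic endothelium were measured alongside the pan-endothelial markers. Of 15 on the array 13 were tested, 0 passed, 5 were above 0, and the median log2 difference was -0.03, with a range from -0.28 to 0.30. Efnb2, the arterial ephrin ligand, averaged 899 ± 22.0 in knockout and 942 ± 71.2 in wild-type (SD, n = 3 each), a difference of -0.06 ± 0.12 (SE). Cav1, the coat protein of caveolae, averaged 837 ± 209 in knockout and 868 ± 224 in wild-type, and differed by -0.05 ± 0.21. Unc5b, a netrin receptor of arteries and tip cells, averaged 724 ± 96.8 in knockout and 847 ± 31.3 in wild-type, and differed by -0.23 ± 0.14. The genotypes were separate for 2 of the 13 genes, beside 10.8% of all genes represented by 1 probe set. The fatty acid binding protein gene Fabp4 and the arterial connexin gene Gja5 were too dim to be tested.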
